A study of Mus musculus with 6 samples.

Results

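The integrated stress response and the genes of amino acid supply were followed in splenic B cells of mice that over-express Bcl2 and either lack Crebbp or carry it in a floxed form. The set holds 48 genes listed by symbol: 18 regulators (6 transcription factors, 4 kinases and 8 feedback and effector genes), 9 enzymes of amino acid synthesis, 9 transporters and 12 aminoacyl-tRNA synthetases. Each gene was read at its brightest probe set, judged by the mean of all 6 arrays, among those annotated with that symbol alone. Of the 48 genes 47 were found among the 18193 tested, with Mars listed under its RefSeq symbol Mars1. Pycr1 was not analysed here.

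The study measured gene expression on Affymetrix arrays in B cells from the spleens of 6 mice. In the 3 Crebbp-deleted mice (CBPΔ/Δ x EµBcl2 in the labels) both copies of the gene for the histone acetyltransferase Crebbp were deleted. In the 3 Crebbp-floxed mice (CBPF/F x EµBcl2) both copies were flanked by recombination sites. All 6 mice carried the Bcl2 transgene under the Eµ enhancer, which is active in lymphocytes, so no array shows B cells without it. The recombinase used for the deletion, the strain background and the age of the mice are not given in the sources used here. Cells were frozen and thawed, and B cells were left untouched while CD43-bearing cells were removed on beads. Values are log2 intensities, and every difference is Crebbp-deleted minus Crebbp-floxed, tested with limma and adjusted by Benjamini-Hochberg over all genes. Single mice are called by their replicate number, as in deleted mouse 3.

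The integrated stress response is a common pathway by which cells slow translation and replace missing amino acids. Kinases that sense heme lack, double-stranded RNA, misfolded protein in the endoplasmic reticulum or uncharged tRNA phosphorylate the translation factor eIF2. General protein synthesis then slows, while the mRNA of the transcription factor ATF4 is translated more, and ATF4 with its C/EBP partners switches on genes for amino acid synthesis, uptake and tRNA charging. Secretory cells of the B lineage use these genes heavily, because antibody synthesis consumes amino acids.

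Crebbp had log2 intensities of 9.59, 9.41 and 9.35 in deleted mice 1 to 3, against 10.04, 9.87 and 9.95 in floxed mice 1 to 3. It was lower in the deleted mice at each of its 4 probe sets, at 51.0% to 70.6% of the floxed level, with no overlap between the groups at any of them. Among the 18193 genes it missed the threshold (difference −0.50, limma adjusted p = 0.078). When all probe sets were tested, 1 of the 4 passed, with a difference of −0.79 (limma adjusted p = 0.033), and the other 3 did not. Whether the probe sets lie in the deleted part was not tested. Of the 10 listed B cell markers 9 were measured, with mean log2 intensities from 6.92 (Pax5) to 12.55 (Ms4a1). The 6 T cell markers had means from 4.21 to 5.81. The median log2 intensities of the 6 arrays ran from 4.27 to 4.30. The sex of the mice, read from Xist and Y-linked genes, was unequal: 2 of the 3 deleted mice and 1 of the 3 floxed mice were male.

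No gene of the set passed the test over all genes. The count was 0 of 47, where 142 of all 18193 genes, 0.781%, passed in either direction. With limma 17 of the 47 members had an unadjusted p under 0.05, against 14.8% of all genes, 14 of them higher in the deleted mice (7.96% of all genes) and 3 lower (6.84%). The groups did not overlap in 17 members (21.2% of all genes), with the deleted mice above in 15 (11.2%) and below in 2 (10.0%). Differences were above 0 in 36 of the 47, where 53.4% of all genes had one above 0, and the median was 0.15, against 0.01 over all genes. An upward difference of 1 or more was seen in 3 members, Asns, Atf5 and Chac1 (1.10% of all genes), and 42 of the 47 had a mean above the median probe set of the array (58.2% of all genes). When only genes above that median were fitted, 14 of 42 members and 2116 of 10594 genes had a limma unadjusted p under 0.05.

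These counts rested partly on single mice. Of the 47 members, those at an unadjusted p under 0.05 numbered 10 without deleted mouse 3, 7 without deleted mouse 1 and 5 without floxed mouse 1. Of all 18193 genes the same threshold had 2302, 2221 and 1990 in these fits. Without floxed mouse 1 the share among the members was thus no higher than that among all genes. Without deleted mouse 3 the median difference was 0.07, with 30 of 47 above 0. With sex as a term in the model the count at an unadjusted p under 0.05 was 15 for members and 2542 for all genes, and the members' median was 0.13.

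**Figure D1:**
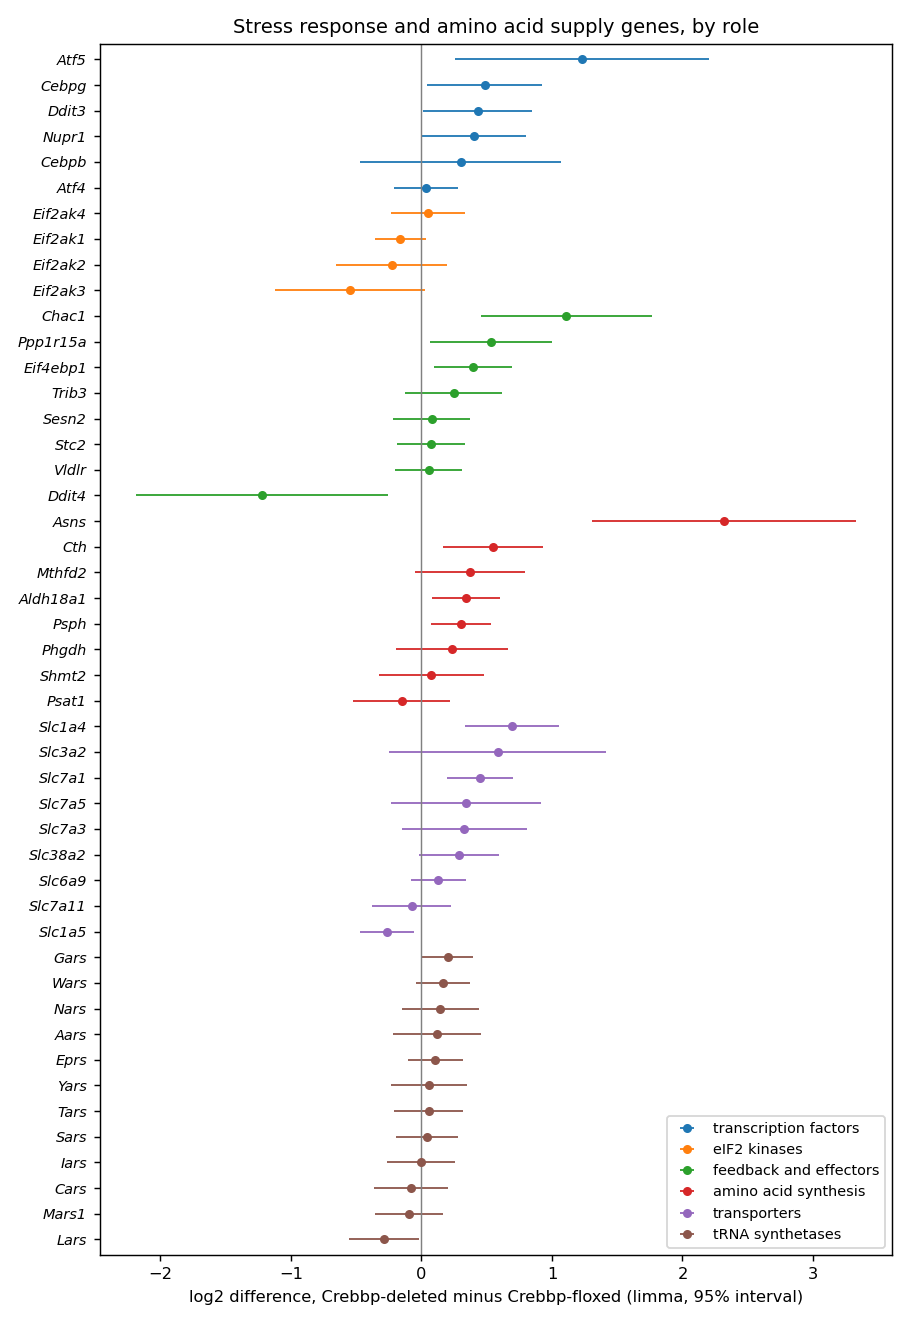
Log2 difference of each of the 47 measured genes, Crebbp-deleted minus Crebbp-floxed, with its 95% interval from limma (3 mice per group), coloured by role; the vertical line marks 0. Asns lies farthest to the right at 2.32, Ddit4 farthest to the left at −1.22, and the 12 tRNA synthetases lie between −0.29 and 0.20.

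Asparagine synthetase stood furthest apart. Asns, which makes asparagine from aspartate and glutamine, had log2 intensities of 7.10, 6.96 and 8.47 in deleted mice 1 to 3, against 4.96, 4.78 and 5.83 in floxed mice 1 to 3. All 3 deleted mice lay above all 3 floxed mice, and deleted mouse 3 was the highest of the 6. The difference was 2.32 ± 0.43 (SE), a 4.99-fold higher level, with a 95% interval of 1.31 to 3.33 and a limma adjusted p of 0.068. Its second probe set differed by 2.71 in the same direction (limma adjusted p = 0.063 when all probe sets were tested). Without deleted mouse 3 the difference of Asns was 1.84, and over the 15 alternatives tried it ran from 1.84 to 2.71 with limma adjusted p-values from 0.0047 to 0.23, past the threshold in 3 of them.

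The promoters of the members were searched for the letters TGATGNAA, the core of the element bound by ATF4 with C/EBP partners, on both strands. RefSeq windows on GRCm38.p6, from 250 bases before to 50 after a gene's start, were at hand for 38 of the 47 genes, and 12 of these 38 (31.6%) held the letters, against 1219 of 27025 genes with a window (4.51%). Among the 13 members with a window and an unadjusted p under 0.05 there were 5 with a match, and among the other 25 there were 7. Several of the members are textbook ATF4 targets, so the share describes the list and was not tested. The 5 with a match and an unadjusted p under 0.05 are shown because they set the letters beside the measured differences. For Asns, Chac1, Gars and Nupr1 the lines hold the 250 bases before the start and for Slc1a4 a window of 30 bases across the start, all 5′ to 3′ on the strand of the gene, with the matched letters in capitals.
Asns (chr6:7693210-7693459, minus strand, GRCm38.p6): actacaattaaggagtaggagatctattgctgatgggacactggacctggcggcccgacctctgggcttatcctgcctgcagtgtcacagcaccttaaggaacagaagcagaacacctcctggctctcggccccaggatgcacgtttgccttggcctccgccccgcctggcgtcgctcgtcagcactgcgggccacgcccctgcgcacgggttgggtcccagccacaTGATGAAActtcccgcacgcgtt
Slc1a4 (chr11:20332699-20332728, minus strand, GRCm38.p6): tgcctcctgcgTTGCATCAtctccagcctg
Chac1 (chr2:119350992-119351241, plus strand, GRCm38.p6): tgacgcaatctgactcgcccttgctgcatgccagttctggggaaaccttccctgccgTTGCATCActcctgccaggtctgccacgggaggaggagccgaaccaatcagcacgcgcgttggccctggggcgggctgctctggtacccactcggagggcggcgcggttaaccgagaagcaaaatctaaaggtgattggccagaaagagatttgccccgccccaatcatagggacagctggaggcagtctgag
Gars (chr6:55037751-55038000, plus strand, GRCm38.p6): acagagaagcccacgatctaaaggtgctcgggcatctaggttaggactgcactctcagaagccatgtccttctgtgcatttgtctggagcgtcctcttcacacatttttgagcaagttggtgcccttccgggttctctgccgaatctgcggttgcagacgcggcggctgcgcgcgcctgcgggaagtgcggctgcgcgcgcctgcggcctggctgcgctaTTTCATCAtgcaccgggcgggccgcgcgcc
Nupr1 (chr7:126625471-126625720, minus strand, GRCm38.p6): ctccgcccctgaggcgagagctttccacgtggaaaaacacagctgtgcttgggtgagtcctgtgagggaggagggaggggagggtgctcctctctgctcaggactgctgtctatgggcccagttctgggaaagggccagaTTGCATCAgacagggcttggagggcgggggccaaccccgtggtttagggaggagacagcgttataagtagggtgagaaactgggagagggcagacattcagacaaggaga
The match began at −23 from the start in Asns, −193 in Chac1, −30 in Gars, −110 in Nupr1 and −4 in Slc1a4. In Asns it read on the strand of the gene and in the other 4 on the opposite strand. Matches were also found in Trib3, Aars, Slc7a11, Vldlr, Tars, Yars and Iars, whose differences lay between −0.07 (Slc7a11) and 0.25 (Trib3). The cyclic AMP response element TGACGTCA, which reads alike on both strands and overlapped none of the TGATGNAA matches in these genes, was found in 1 of the 38 members with a window (2.63%), Ppp1r15a, against 2.03% of all genes with a window.

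The mRNA of Atf4 itself differed little. It had log2 intensities of 11.20, 10.91 and 11.09 in deleted mice 1 to 3, against 11.01, 11.09 and 10.99 in floxed mice 1 to 3, and the groups overlapped. The difference was 0.04, with a 95% interval of −0.21 to 0.28 (limma adjusted p = 0.91), so a change of the mRNA by 0.3 log2 units or more lies outside that interval. ATF4 is controlled mainly at translation, which arrays do not measure.

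The other transcription factors all had differences above 0 (53.4% of all genes), none past the test. Atf5, a relative of ATF4 whose mRNA is translated under the same conditions, had 5.66, 5.48 and 7.21 in deleted mice 1 to 3, against 4.74, 4.93 and 5.001 in floxed mice 1 to 3. The groups did not overlap, but deleted mouse 3 stood 1.64 above the mean of the other deleted mice. The difference of Atf5 was 1.23 ± 0.42 (SE, limma adjusted p = 0.23) and 0.68 without that mouse.

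Cebpg, a dimerisation partner of ATF4, had 7.15, 7.16 and 7.20 in the deleted mice, against 6.52, 7.15 and 6.39 in the floxed mice. The deleted mice lay close together and just above floxed mouse 2. Its difference was 0.48 ± 0.19 (SE, limma adjusted p = 0.29), and without floxed mouse 2 it was 0.71 and passed (limma adjusted p = 0.043; 0.043 to 0.57 over the alternatives). All 3 probe sets of Cebpg were higher in the deleted mice.

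Ddit3, which encodes the pro-apoptotic factor CHOP, had 8.004, 7.59 and 8.34 in deleted mice 1 to 3, against 7.48, 7.57 and 7.60 in floxed mice 1 to 3. Deleted mouse 2 lay within the floxed range. The difference was 0.43 ± 0.18 (SE, limma adjusted p = 0.32) and 0.25 without deleted mouse 3. Nupr1, a small stress-induced chromatin protein, had 3.89, 3.71 and 4.25 in the deleted mice, against 3.60, 3.30 and 3.74 in the floxed mice. These groups overlapped too, with a difference of 0.40 (limma adjusted p = 0.33) that was 0.25 without deleted mouse 3, and the level is dim, below the median probe set of the array (4.29), which leaves its size uncertain. Cebpb, a C/EBP factor of inflammation and differentiation, differed by 0.30 with a 95% interval of −0.47 to 1.07 (limma adjusted p = 0.73).

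**Figure D2:**
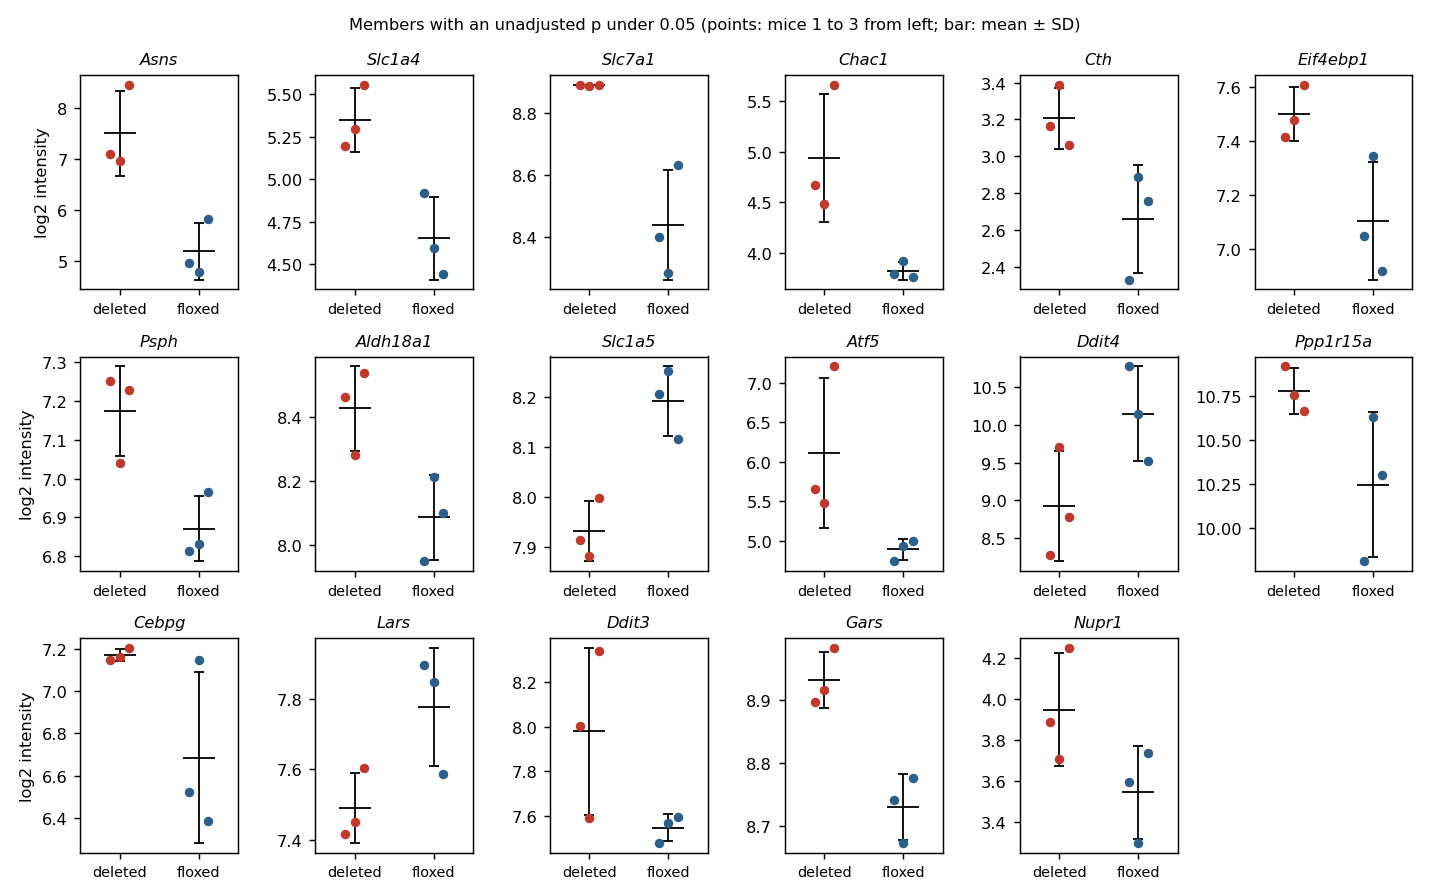
Log2 intensity of the 17 genes with an unadjusted p under 0.05 in each mouse, ordered by p, Crebbp-deleted left and Crebbp-floxed right; points are mice 1 to 3 from left to right, the line is the mean and the bar the SD (n = 3), and each panel has its own axis. The groups do not overlap in 13 panels (21.2% of all genes have no overlap), and Ddit4, Lars, Ddit3 and Nupr1 are the 4 that overlap. The panels were chosen by p in these same mice, which favours groups without overlap.

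The 4 kinases that start the response were not higher in the deleted mice as a group, with a median difference of −0.20. Of their 4 differences 1 was above 0 (25.0%, against 53.4% of all genes). Eif2ak3, which encodes PERK, the sensor of misfolded protein in the endoplasmic reticulum, had 9.95, 10.06 and 9.77 in deleted mice 1 to 3, against 10.996, 9.94 and 10.50 in floxed mice 1 to 3. The groups overlapped through floxed mouse 2, and the difference of −0.55 ± 0.25 (SE) did not pass (limma adjusted p = 0.36). It was −0.29 without floxed mouse 1 and −0.82 without floxed mouse 2. All 3 of its probe sets were lower.

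Eif2ak1, the heme-regulated kinase, had 6.87, 6.77 and 6.81 in the deleted mice, against 7.03, 6.97 and 6.94 in the floxed mice. The deleted mice lay below the floxed ones by a small step of −0.16 (limma adjusted p = 0.42), and all 5 probe sets were lower, with differences down to −0.42. Eif2ak2, the kinase PKR that binds double-stranded RNA and is induced by interferon, had 6.76, 6.84 and 6.64 in the deleted mice, against 6.99, 7.34 and 6.60 in the floxed mice. The groups overlapped, with a difference of −0.23 (limma adjusted p = 0.62) that was −0.05 without floxed mouse 2 and −0.42 without floxed mouse 3.

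Eif2ak4, which encodes GCN2, the sensor of uncharged tRNA, had 6.79, 6.77 and 6.99 in the deleted mice, against 6.79, 6.98 and 6.63 in the floxed mice. The values were mixed, and the difference of 0.05 (limma adjusted p = 0.89) had a 95% interval of −0.23 to 0.33. Its second probe set differed by −0.33, so no direction is given for this gene.

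Among the feedback and effector genes 7 of 8 differences were above 0, 4 members had an unadjusted p under 0.05, and they did not all point one way. Chac1, which breaks down glutathione, had 4.67, 4.49 and 5.66 in deleted mice 1 to 3, against 3.80, 3.93 and 3.76 in floxed mice 1 to 3. All deleted mice lay above the floxed mice, with deleted mouse 3 again the highest. The difference was 1.11 ± 0.28 (SE), 2.16-fold higher, with a limma adjusted p of 0.14, and without deleted mouse 3 it was 0.75. Floxed means below 4.29, as here, make the size of a fold uncertain.

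Ppp1r15a encodes GADD34, the phosphatase subunit that removes phosphate from eIF2 and ends the response. It had 10.92, 10.76 and 10.66 in the deleted mice, against 9.81, 10.63 and 10.30 in the floxed mice. The groups did not overlap, although floxed mouse 2 came within 0.1 of deleted mouse 3. The difference was 0.53 ± 0.20 (SE, limma adjusted p = 0.27) and 0.32 without floxed mouse 1. Eif4ebp1, which encodes the translation repressor 4E-BP1, had 7.41, 7.47 and 7.61 in the deleted mice, against 7.05, 7.34 and 6.92 in the floxed mice. These groups were also separate, by 0.40 ± 0.13 on average (SE, limma adjusted p = 0.22). Of its probe sets 2 of 3 were higher, and as the mean of all 3 the difference was 0.19.

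Ddit4 went the other way. It encodes REDD1, an inhibitor of the growth regulator mTORC1 that responds to hypoxia, glucocorticoids and energy lack as well as to ATF4. It had 8.28, 9.71 and 8.78 in deleted mice 1 to 3, against 10.77, 10.14 and 9.52 in floxed mice 1 to 3. Deleted mouse 2 lay above floxed mouse 3, so the groups overlapped. The difference was −1.22 ± 0.41 (SE), 2.33-fold lower (limma adjusted p = 0.23), and from −1.61 to −0.90 over the alternatives.

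The remaining effectors lay near their floxed levels. Trib3, a pseudokinase that restrains ATF4, differed by 0.25 (95% interval −0.12 to 0.62). Sesn2, a leucine-binding inhibitor of mTORC1, differed by 0.08 (−0.22 to 0.37), Stc2, a secreted glycoprotein, by 0.07 (−0.19 to 0.34) and Vldlr, a lipoprotein receptor, by 0.06 (−0.20 to 0.31). In these 4 genes the groups overlapped.

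Enzymes of amino acid synthesis had 7 of 8 differences above 0 and a median of 0.32. Besides Asns, 3 had an unadjusted p under 0.05. Psph, the last step of serine synthesis, had 7.25, 7.04 and 7.23 in deleted mice 1 to 3, against 6.81, 6.83 and 6.97 in floxed mice 1 to 3. Aldh18a1, which makes the precursor of proline, had 8.46, 8.28 and 8.54 in the deleted mice, against 7.95, 8.21 and 8.10 in the floxed mice. In both genes the groups did not overlap. The difference was 0.30 ± 0.10 (SE, limma adjusted p = 0.22) for Psph and 0.34 ± 0.11 (SE, limma adjusted p = 0.22) for Aldh18a1, whose 5 probe sets were all higher.

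Cth, which makes cysteine from cystathionine, had 3.16, 3.39 and 3.06 in the deleted mice, against 2.33, 2.89 and 2.76 in the floxed mice. Its groups were separate too, with a difference of 0.55 (limma adjusted p = 0.18), but at levels below the median of probe set means, and it was 0.17 with an offset of 16 added to the intensities.

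The rest of the serine and folate pathway differed less. Mthfd2, a mitochondrial folate enzyme, differed by 0.37 (95% interval −0.05 to 0.79). Phgdh, the first step of serine synthesis, differed by 0.23 (−0.20 to 0.67), and by 0.04 without deleted mouse 3. Shmt2, which passes a carbon unit from serine to folate in mitochondria, differed by 0.08 (−0.32 to 0.48), and by −0.08 without that mouse. Psat1, the step between Phgdh and Psph, differed by −0.15 at its representative and by 0.29 at its other probe set. The groups of these 4 genes overlapped.

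**Figure D3:**
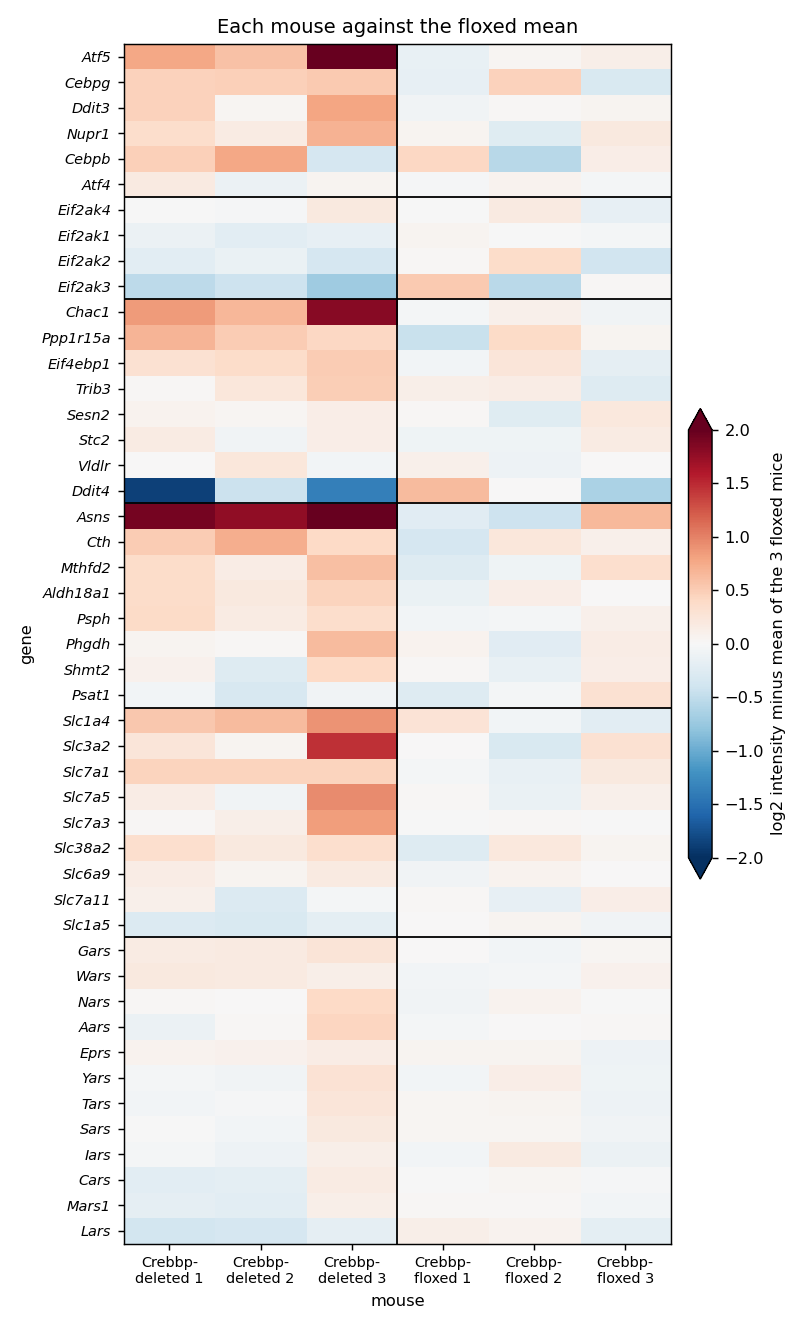
Log2 intensity of each of the 47 genes in each mouse minus the mean of the 3 Crebbp-floxed mice (colour scale from −2 to 2, values beyond it drawn at the end colours), Crebbp-deleted mice left, rows grouped from the top as transcription factors, kinases, feedback and effectors, synthesis, transporters and tRNA synthetases. Deleted mouse 3 holds the highest value of the 6 mice in 27 of the 47 genes.

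Transporters had 7 of 9 differences above 0 (77.8%, against 53.4% of all genes) and a median of 0.33, with single members on either side. Slc1a4, a carrier of alanine, serine and cysteine, had 5.19, 5.29 and 5.56 in deleted mice 1 to 3, against 4.92, 4.60 and 4.44 in floxed mice 1 to 3. The groups did not overlap, all 3 probe sets were higher, and the difference was 0.69 ± 0.15 (SE), 1.62-fold higher (limma adjusted p = 0.097). As the mean of its probe sets the difference of Slc1a4 was 0.41 (limma adjusted p = 0.22; 0.083 to 0.22 over the alternatives).

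Slc7a1, the main carrier of arginine and lysine, had 8.89, 8.88 and 8.89 in the deleted mice, against 8.40, 8.29 and 8.63 in the floxed mice. The 3 deleted mice were nearly equal and all above the floxed mice. The mean difference came to 0.45 ± 0.11 (SE) with a limma adjusted p of 0.12, and 1 of 3 probe sets went the other way.

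Slc1a5 is a paralog of Slc1a4 and a main carrier of glutamine, and it stood lower. It had 7.91, 7.88 and 7.998 in the deleted mice, against 8.21, 8.25 and 8.12 in the floxed mice. The groups did not overlap at either of its 2 probe sets, and the difference was −0.26 ± 0.09 (SE, limma adjusted p = 0.23).

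Slc3a2 and Slc7a5 encode the heavy and light chain of the LAT1 carrier of large neutral amino acids, and both were set apart by deleted mouse 3. Slc3a2 had 8.77, 8.58 and 9.98 in deleted mice 1 to 3, against 8.53, 8.22 and 8.82 in floxed mice 1 to 3. Slc7a5 had 6.99, 6.77 and 7.79 in the deleted mice, against 6.88, 6.72 and 6.94 in the floxed mice. In both genes deleted mouse 2 lay within the floxed range, as deleted mouse 1 did in Slc3a2, and deleted mouse 3 was the highest of the 6. Without deleted mouse 3 the differences were 0.15 for Slc3a2 and 0.04 for Slc7a5. Neither difference passed with all mice, at 0.59 ± 0.36 (SE, limma adjusted p = 0.50) for Slc3a2 and 0.34 ± 0.25 (SE, limma adjusted p = 0.57) for Slc7a5.

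Slc7a3, another carrier of cationic amino acids, differed by 0.33 (95% interval −0.15 to 0.81), and by 0.07 without deleted mouse 3, at a level below the median of probe set means. Slc38a2, a sodium-coupled carrier of small neutral amino acids, differed by 0.29 (−0.02 to 0.60) and Slc6a9, a glycine carrier, by 0.13 (−0.08 to 0.34). Slc7a11, the cystine carrier, was dim in both groups, with 2.58 ± 0.19 in the deleted mice and 2.65 ± 0.15 in the floxed mice (SD, n = 3 each).

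The aminoacyl-tRNA synthetases, which charge tRNAs, stayed close to their floxed levels, with a median difference of 0.06 and a range from −0.29 to 0.20. Gars, for glycine, had 8.90, 8.92 and 8.98 in deleted mice 1 to 3, against 8.74, 8.67 and 8.78 in floxed mice 1 to 3. Wars, for tryptophan, had 6.97, 6.94 and 6.87 in the deleted mice, against 6.71, 6.73 and 6.85 in the floxed mice. In both the groups were separate by a small step, 0.20 for Gars (limma adjusted p = 0.33) and 0.16 for Wars (limma adjusted p = 0.44), which was 0.04 as the mean of its probe sets.

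Lars, for leucine, was lower, with 7.42, 7.45 and 7.60 in the deleted mice, against 7.90, 7.85 and 7.59 in the floxed mice. Deleted mouse 3 and floxed mouse 3 were nearly equal, and the difference was −0.29 ± 0.11 (SE, limma adjusted p = 0.30). The differences of the other 9 (Nars, Aars, Eprs, Yars, Tars, Sars, Iars, Cars and Mars1) ran from −0.09 in Mars1 to 0.15 in Nars. In 9 of the 12 synthetases deleted mouse 3 had the highest value of the 6 mice, and the mean over the 12 stood at −0.04, −0.04 and 0.19 in deleted mice 1 to 3 relative to the floxed mean, against 0.00, 0.05 and −0.05 in floxed mice 1 to 3.

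Deleted mouse 3 stood apart across the set. It had the highest value of the 6 mice in 27 of the 47 genes (57.4%), against 26.4% of all genes. In 8 of the 47 it lay at least 0.5 above the mean of the other deleted mice, led by Atf5 (1.64), Asns (1.44), Slc3a2 (1.31), Chac1 (1.08) and Slc7a5 (0.91). The share of all genes at this cut was not counted. Over all genes, deleted mouse 3 averaged 0.07 above the floxed mean, against 0.01 in deleted mouse 1 and −0.002 in deleted mouse 2. Relative to the floxed mean, synthesis enzymes averaged 0.45, 0.31 and 0.76 in deleted mice 1 to 3, against −0.15, −0.07 and 0.22 in floxed mice 1 to 3, and transporters averaged 0.19, 0.09 and 0.54, against −0.01, −0.05 and 0.05. On these averages every deleted mouse lay above every floxed mouse in synthesis enzymes and transporters. Asns weighed heavily in the synthesis average, at 1.84 in deleted mice 1 and 2 together and 3.28 in deleted mouse 3. The separation was not tested without Asns, and the other synthesis enzymes did not share it throughout. Deleted mouse 2 lay below floxed mouse 3 in Psat1, Phgdh, Shmt2 and Mthfd2, and above it in Psph, Aldh18a1 and Cth. Transcription factors stood higher too, at 0.45, 0.32 and 0.68, against 0.01, −0.04 and 0.03. Kinases stood lower in every deleted mouse, at −0.22, −0.20 and −0.25, against 0.14, −0.001 and −0.14. Eif2ak3 had the largest difference among the kinases (−0.55), and whether their average separates without it was not tested. In Eif2ak2 and Eif2ak4 floxed mouse 3 held the lowest value of the 6 mice, while in Eif2ak1 every deleted mouse lay below every floxed mouse.

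Markers of plasma cells and macrophages and heat shock genes also stood higher in the deleted mice, while T cell markers were mixed. All 12 plasma cell markers had a difference above 0 (53.4% of all genes), with a median of 1.03. Of the 12 markers 1, Jchain, passed, where 0.781% of all genes passed in either direction. Their mean log2 intensity was 8.33, 8.47 and 9.37 in deleted mice 1 to 3, against 7.53, 7.53 and 7.62 in floxed mice 1 to 3, so deleted mouse 3 was the highest here too. Of 13 measured macrophage and monocyte markers 12 had a difference above 0 and 0 passed, while 8 (61.5%, against 14.8% of all genes) had a limma unadjusted p under 0.05. Their mean was 6.89, 6.18 and 7.35 in the deleted mice, against 6.38, 4.88 and 5.46 in the floxed mice, where the groups overlapped. Of the 6 T cell markers 5 had a difference above 0 and 0 passed, with a median of 0.31. Their mean was 5.11, 5.31 and 5.26 in the deleted mice, against 4.95, 4.45 and 4.97 in the floxed mice. Among them only Cd28 (1.48, at a level below the median of probe set means) had a limma unadjusted p under 0.05. This was 16.7% of the 6, near the 14.8% of all genes. Cd3d and Cd3g differed by 0.50 each, Cd8a by 0.12, Cd4 by 0.06 and Cd3e by −0.05. Deleted mouse 3 lay below floxed mouse 3 in Cd3d, Cd3g, Cd3e and Cd4, and above it in Cd8a. Whether the T cell means separate without Cd28 was not tested. All 11 heat shock genes were higher (53.4% of all genes) and 3 passed (0.781% of all genes in either direction). Their means were 11.38, 10.93 and 11.52 in the deleted mice, against 9.14, 10.08 and 9.61 in the floxed mice. B cell markers stood on the other side, with 8 of 9 differences below 0 and a median of −0.27. Of the 9 markers 4 (44.4%, against 14.8% of all genes) had a limma unadjusted p under 0.05. In 5 of the 9 (55.6%, against 10.0% of all genes) every deleted mouse lay below every floxed mouse. Of these Cd79a, a chain of the B cell receptor complex, passed (difference −1.11, limma adjusted p = 0.0093). An array gives no marker at 0, and the part of these cells, or of the heat shock genes, in the differences of the set was not tested. More cells of a type and more RNA per cell cannot be told apart in such samples.

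**Figure D4:**
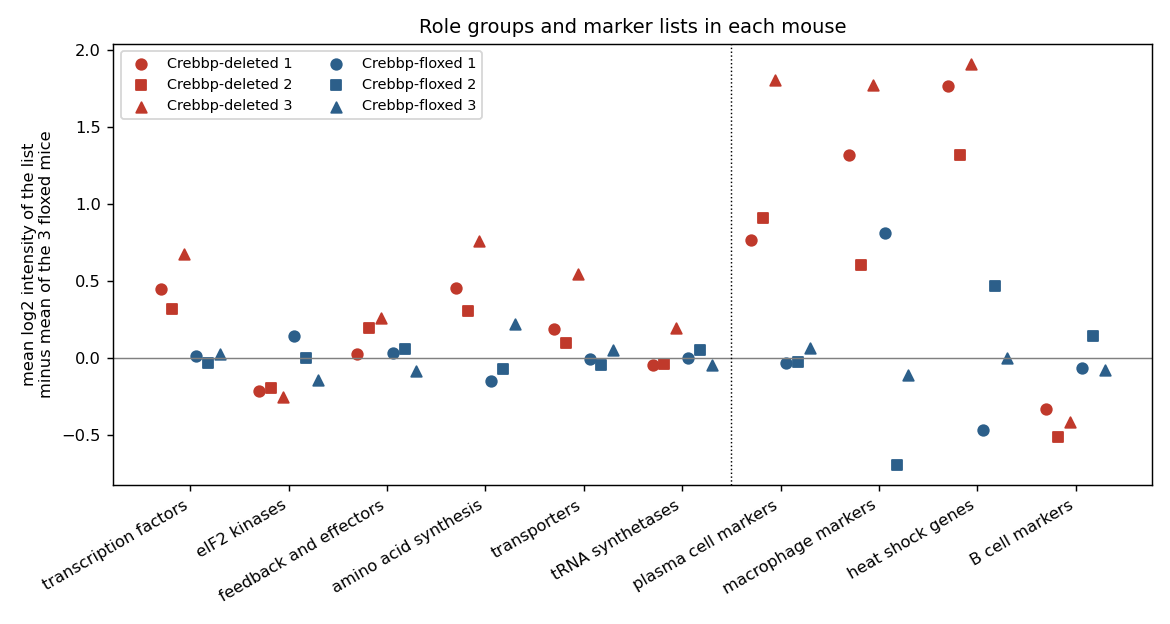
Mean log2 intensity of each role group (left of the dotted line) and of 4 comparison lists (right of it) in each mouse, relative to the mean of the 3 Crebbp-floxed mice; colours give the genotype and symbols the replicate number. Deleted mouse 3 is the highest in synthesis (0.76), transporters (0.54) and plasma cell markers (1.81).

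Other genes of the pathway did not stand on one side. Of 65 measured genes of 70 listed 0 passed, and 11 had a limma unadjusted p under 0.05 (5 higher and 6 lower). These were 16.9%, near the 14.8% of all genes. Above 0 were 31 differences (47.7%, against 53.4% of all genes), and the median was −0.01. Among 9 genes of eIF2, its exchange factor eIF2B, the partner phosphatase and the separate factor eIF2A, 2 differences were above 0. Ppp1r15b, the constitutive counterpart of Ppp1r15a, differed by −0.21 (limma adjusted p = 0.33) with no overlap. Ppp1r15a, as given above, stood higher by 0.53.

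Among 12 other amino acid carriers, Slc36a4, a carrier of proline and tryptophan, was the furthest apart. It had 6.52, 6.004 and 6.32 in deleted mice 1 to 3, against 4.66, 4.70 and 5.49 in floxed mice 1 to 3, so that all deleted mice were higher. The difference of Slc36a4 was 1.33 ± 0.24 (SE, limma adjusted p = 0.062). Slc1a3, a glutamate carrier, differed by 0.35 (limma adjusted p = 0.17) and Slc6a6, the taurine carrier, by −0.41 (limma adjusted p = 0.16).

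Of 18 other amino acid enzymes 5 (27.8%, against 14.8% of all genes) had a limma unadjusted p under 0.05. Asl, which makes arginine from argininosuccinate, differed by 0.63, Mthfd2l, a paralog of Mthfd2, by 0.44 and Glul, which makes glutamine, by 0.36. Mthfd2l was dim, with means of 3.79 in the deleted and 3.34 in the floxed mice, below the median of probe set means, so its size is uncertain. Mthfd1l and Oat, a mitochondrial folate enzyme and ornithine aminotransferase, differed by −0.31 each. None of the 5 passed (limma adjusted p 0.14 to 0.29).

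The 10 other cytosolic synthetases and scaffold proteins had a median difference of 0.06 and none with an unadjusted p under 0.05. The 16 mitochondrial synthetases had a median of −0.09, with 4 differences above 0. Among them Hars2, for histidine, and Mars2, for methionine, differed by −0.39 (limma adjusted p = 0.16) and −0.63 (limma adjusted p = 0.24). Mars2 was dim, with means of 2.80 in the deleted and 3.42 in the floxed mice, below the median of probe set means, so its size is uncertain.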

How the data were processed

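Gene expression was measured on Affymetrix arrays in 6 splenic B cell samples, 3 Crebbp-deleted and 3 Crebbp-floxed from separate mice, per the labels and the series' design text. The values deposited by the authors are intensities, 1 for each probe set on each array. RMA (background correction, quantile normalization, probe summary) is named in the submitters' processing notes, with its version not given in the sources used here. The deposited values run from 2.96 to 17022 and were read as linear intensities and log2-transformed. Arrays have no depth, and their number limits the precision.

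Of 45101 probe sets 34958 had 1 gene symbol, 932 several and 9211 none in the platform annotation used; only the first were named, and 64 control probe sets were left out. RefSeq (GRCm38.p6) held the IDs of 34754 and changed 0 symbols. Each of 18193 genes was represented by its probe set with the highest mean. The comparison used lmFit and eBayes of limma 3.58.1 under R 4.3.3 (two-sided, no covariate, Benjamini-Hochberg over all genes, threshold 0.05); probe sets other than a gene's representative were tested in a separate adjustment over all probe sets. Permuting 3 against 3 samples cannot give a p under 0.1 and was not used.

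The members and lists were chosen with earlier results of these data known. Values in every mouse are given for members with an unadjusted p under 0.05, the 3 with the smallest p of each of the 4 role groups (regulators, synthesis, transporters, synthetases), Atf4 and the kinases, and for Slc3a2, Slc7a5 and Slc36a4, chosen after their values were seen. Alternatives covered normalization, dim genes, probe set choice, an offset of 16, limma settings, the threshold, sex, a replicate block and each mouse left out. The TGACGTCA search was added after seeing the data. The fit was tested on simulated data. Figures were drawn with matplotlib 3.10.9.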

Additional observations from a re-analysis of the deposited data

How the results depend on the processing

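Under the 15 alternatives the median difference of the members stayed between 0.07 and 0.21, while the members with an unadjusted p under 0.05 numbered 5 to 17. The count of members past the threshold, 0 as reported, was 1 with the probe set of largest variance (Asns, limma adjusted p = 0.044), 1 with the replicate block (Asns, limma adjusted p = 0.0047), 2 at a threshold of 0.1, and 0 to 1 when each mouse was left out in turn, where Cebpg passed without floxed mouse 2 and Asns without floxed mouse 3 (limma adjusted p = 0.046). Over all genes the 142 calls became 222 with trend and robust settings, 37 with sex as a term, 449 at a threshold of 0.1, and 0 to 226 with each mouse left out; the 0 calls came without floxed mouse 1, with 1990 genes at an unadjusted p under 0.05. Leaving out a mouse gave 5 to 14 members at an unadjusted p under 0.05. The cause of these changes was not tested, except that a left-out mouse leaves fewer samples. Atf4 changed sign after a second quantile normalization (−0.0066) and ran from −0.031 to 0.12 with each mouse left out. Eif2ak4 was −0.14 as the mean of its probe sets, −0.33 at the probe set of largest variance and −0.035 to 0.14 with each mouse left out. Of 343 values of single members 333 kept their direction and their side of the threshold. The groups share replicate numbers, but the deviations of same-numbered mice correlated at 0.03, 0.10 and 0.01, so the numbers were not taken as pairs; the replicate block moved the genes called to 126. With 3 mice a group only large or tight differences can pass, and values below the median of probe set means (5 of the 47 members) have uncertain sizes.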

Other observations

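Probe sets of a gene did not always point the same way. Of the 33 members with several probe sets 21 had all of them on one side, and among the 9 of these 33 with an unadjusted p under 0.05 there were 7, Eif4ebp1 and Slc7a1 being the exceptions. Over the 107 probe sets of the 47 members 73 were higher in the deleted mice and 34 lower.

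Of the paralogous carriers Slc1a4 was higher by 0.69 and Slc1a5 lower by 0.26 on the log2 scale (difference −0.26). Neither passed the test over all genes, and the difference between them was not tested.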
